A study of Mus musculus with 27 samples.

Results

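NRF2 target genes are described here in mouse kidneys that were made ischemic for different lengths of time. The 9 genes Nqo1, Hmox1, Gclc, Gclm, Srxn1, Txnrd1, Slc7a11, Gsr and Me1 were taken by symbol from the 19392 genes in the table of expression values. All 9 were among the 18188 genes above 0 FPKM (fragments mapped to a gene, scaled to its length and to the fragments of the library) in at least 3 kidneys, so none was lost to the filter on low values. NRF2, the product of Nfe2l2, is a transcription factor that KEAP1 holds in the cytoplasm and delivers to degradation. Oxidants and electrophiles modify KEAP1, NRF2 then accumulates, pairs with small MAF proteins in the nucleus and binds antioxidant response elements, and BACH1 competes for the same elements. In the kidney the pathway is known for its induction in tubular cells by ischemia and reperfusion and by toxins.

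The samples were left kidneys of 27 C57BL/6 mice, 3 at each of 9 ischemia times. In every mouse, shams included, the right kidney was removed, and the animal lay on a platform heated to 37 °C. The left renal pedicle was clamped for 0 min (the sham group), 16, 18, 20, 22, 24, 26, 28 or 30 min, and the kidney was taken after 24 h of reperfusion. The age of the mice is not given in the sources used here, and whole kidney tissue was sequenced, so fewer cells of a type and less RNA per cell cannot be told apart.

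Some facts of the series bear on the values below. Sums of FPKM lay between 512453 and 554036 per kidney, read counts were not used here, and the depth is therefore unknown. The tissue label held, since the tubular genes Slc34a1 (2028 to 2377 FPKM) and Umod (1247 to 1405 FPKM) were abundant in all sham kidneys. A few kidneys stood apart from their group. Havcr1 (KIM-1, a marker of tubular injury) was 35.1 FPKM in kidney 3 of 16 min against 332 and 574 FPKM in the other two, and 22.0 FPKM in sham kidney 3 against 2.81 and 2.49 FPKM. Kidney 3 of 30 min had 2034 FPKM of Umod against 463 and 454 FPKM. Without sham kidney 3 and 16 min kidney 3 the number of genes among the 9 called as DEGs (differentially expressed genes, an adjusted p-value under 0.05 and an absolute log2 fold change above 1) was the same in each of the 8 comparisons with 0 min.

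Several of the 9 genes have the letters of an antioxidant response element near a start site, and these stretches are shown because the element is the DNA that NRF2 binds. RefSeq promoter windows (build GRCm38.p6, 250 bases before to 50 bases after a start) were held for 6 of the 9 genes, in 9 windows. The core TGACNNNGC was searched on both strands, so that GCNNNGTCA is the same core read from the other strand. It was present in 4 of the 9 windows, those of Srxn1, Gclm, Me1 and Txnrd1, and in 12.4% of all 32851 windows. The windows of Nqo1 and Slc7a11, the other Me1 window and the other two Txnrd1 windows did not hold these letters. The core is in capitals below, each sequence runs 5′ to 3′ on the strand of its gene, and the match describes letters and not binding.
Gclm, chr3:122245378-122245477, plus strand: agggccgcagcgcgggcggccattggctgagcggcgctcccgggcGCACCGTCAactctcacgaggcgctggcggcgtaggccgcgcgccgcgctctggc
Txnrd1, chr10:82859069-82859168, plus strand: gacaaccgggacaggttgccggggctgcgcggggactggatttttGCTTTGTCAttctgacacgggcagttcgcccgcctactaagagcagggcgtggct
Srxn1, chr2:152105542-152105570, plus strand: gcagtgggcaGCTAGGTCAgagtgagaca
Me1, chr9:86695902-86695930, minus strand: gatgccgccgTGACTCAGCgcttctcgcg
In Gclm the core lay 134 to 126 bases before the start, outside any annotated exon. In Txnrd1 it lay 92 to 84 bases before the second of 3 starts, also outside exons and within the gene. The Srxn1 core was 29 to 37 bases into the first exon, in the untranslated region, and the Me1 core ran from 6 bases before the start to the third base of the transcript. Only the Me1 stretch, of these 4, also held TGACTCA, a sequence that AP-1 factors bind.

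The 9 genes differed in their course over the ischemia times. Nqo1 and Hmox1 were already higher than in sham kidneys at 16 min by the adjusted p-value. Gclc, Gclm, Srxn1 and Txnrd1 did not pass at 16 min. For each of them all 3 kidneys lay above the shams, but the share of all genes that separate in this way was not computed. Hmox1, Srxn1, Txnrd1, Slc7a11 and Gsr were highest at 28 and 30 min, and Me1 was lowest there. Gclc did not pass the test at any time, and Gclm rose moderately at 24 to 28 min but not at 30 min. Among the 9 genes the number of DEGs was 1 at each time from 16 to 26 min against 0 min, 4 at 28 min and 5 at 30 min. Of all genes tested the same rule called 2.25%, 3.06%, 2.51%, 3.29%, 3.12% and 3.77% at the 6 times from 16 to 26 min, then 8.48% at 28 min and 10.7% at 30 min. At an adjusted p-value under 0.05 with no limit on the fold change, 2, 3, 2, 3, 5 and 5 of the 9 genes passed at the 6 times from 16 to 26 min, where 19.0%, 27.8%, 22.8%, 28.8%, 28.3% and 30.1% of all genes did. By the same rule 8 of the 9 passed at 28 min, beside 48.2% of all genes, and 7 of the 9 at 30 min, beside 52.3%. The shares of the 9 genes at 16 to 22 min, 2 or 3 of 9 by the adjusted p-value alone, were near those of all genes. The 8 comparisons with 0 min share the same 3 sham kidneys, so they are not independent of each other.

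**Figure D1:**
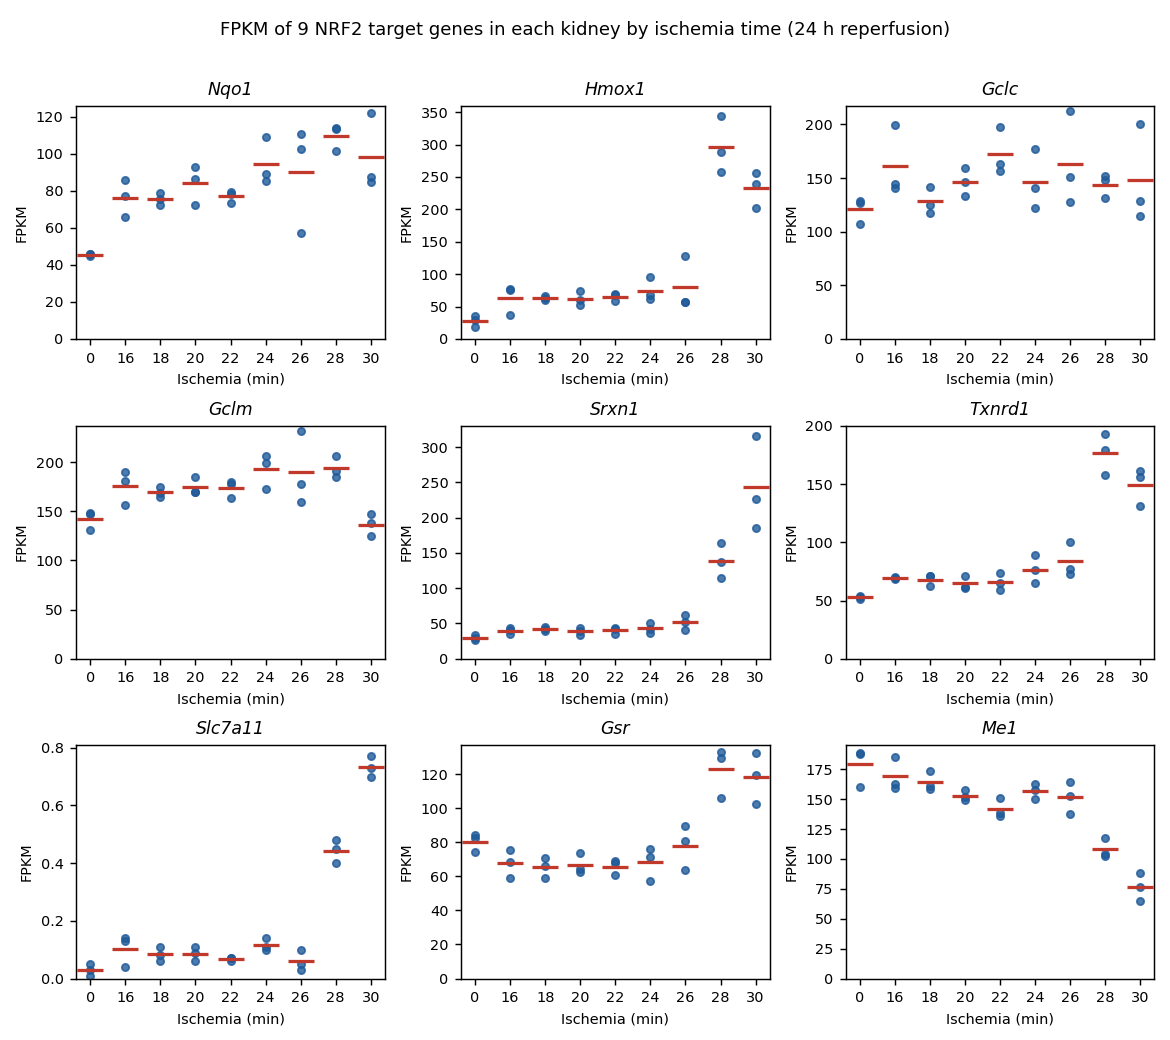
FPKM (y axis, linear from 0) of each of the 9 genes against ischemia time in min (x axis); each blue point is 1 kidney and each red bar the mean of 3 kidneys. Hmox1, Srxn1, Txnrd1, Slc7a11 and Gsr lie higher in all 6 kidneys of 28 and 30 min than in the 18 kidneys of 16 to 26 min, and Me1 lies lower in all 6. The share of all genes with such a separation was not computed.

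Hmox1 encodes heme oxygenase 1, the enzyme that opens the heme ring and releases iron, carbon monoxide and biliverdin. It was 18.8, 30.0 and 36.1 FPKM in the 3 sham kidneys. In the 18 kidneys of 16 to 26 min it ranged from 36.5 to 128 FPKM with a median of 65.3 FPKM. After 28 min of ischemia the values were 289, 258 and 344 FPKM, and after 30 min 256, 239 and 203 FPKM. Every kidney clamped for 16 min or more was above all sham kidneys, although 16 min kidney 3, at 36.5 FPKM, was close to sham kidney 3, at 36.1 FPKM. The 6 kidneys of 28 and 30 min were above all others. By limma's test Hmox1 was a DEG at every time, with a log2 fold change against 0 min of 1.03 ± 0.29 (SE) at 16 min (adjusted p = 0.0184), 1.34 ± 0.29 at 26 min (adjusted p = 0.00164) and 3.30 ± 0.29 at 28 min (adjusted p = 3.21e-08). At 30 min it was 3.07 ± 0.29 (adjusted p = 3.31e-08). These fold changes, as all below, are on the scale of quantile normalized log2(FPKM + 1).

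The early calls of Hmox1 rested on single kidneys. Without sham kidney 1 the log2 fold change fell below 1 at 16, 18, 20 and 22 min (0.77, 0.83, 0.78 and 0.86). It also fell below 1 without 16 min kidney 1 or kidney 2 (0.86 for either), without 20 min kidney 2 (0.91) and without 26 min kidney 3 (0.95), while the calls at 24, 28 and 30 min held without any 1 kidney. Kidney 3 of 26 min, at 128 FPKM, was above the other two of its group, at 57.0 and 56.9 FPKM, and it also had the lowest Slc34a1 of that group, 1195 FPKM against 2014 and 2323 FPKM.

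Macrophages and erythroid cells also make heme oxygenase, so marker lists of blood and tubular cells are given beside Hmox1. The sum of 8 macrophage markers was 79.3 to 92.0 FPKM in sham kidneys. It was 83.1 to 151 FPKM at 16 min, 120 to 152 FPKM at 18 min, 113 to 162 FPKM at 20 min, 101.4 to 115 FPKM at 22 min and 107 to 124 FPKM at 24 min, so that from 18 to 24 min all kidneys were above the shams. Later it was 91.8 to 115 FPKM at 26 min, 92.3 to 107 FPKM at 28 min and 85.8 to 165 FPKM at 30 min. Of these 8 markers 2 rose as DEGs at 16, 18, 20 and 24 min and 1 at 22 min. At 26 and 28 min 2 rose and 1 fell, and at 30 min 3 rose and 1 fell. The rule called 2.25% to 3.77% of all genes at 16 to 26 min, 8.48% at 28 min and 10.7% at 30 min. By the adjusted p-value alone 7 of the 8 markers passed at 28 min, 3 higher and 4 lower, beside 48.2% of all genes. The list therefore did not move in 1 direction at 28 min. Csf1r was 13.7 to 18.28 FPKM in sham kidneys, 7.16 to 9.17 FPKM at 26 min and 5.1 to 6.45 FPKM at 28 min. Adgre1 (F4/80) stayed between 0.53 and 1.87 FPKM in the kidneys of 0, 26, 28 and 30 min, and Cd68, a DEG at all 8 times, was 3.04 to 3.61 FPKM in sham kidneys, 8.81 to 30.3 FPKM at 16 min and 22 to 26.02 FPKM at 28 min. Its lowest value at 16 min was in kidney 3, the kidney of that group with the lowest Hmox1. The sum of 6 neutrophil markers was 5.27 to 10.1 FPKM in sham kidneys, 5.68 to 9.53 FPKM at 26 min, 14.8 to 17.97 FPKM at 28 min and 19.7 to 28.3 FPKM at 30 min, with S100a8 at most 12.1 FPKM and S100a9 at most 12.5 FPKM in these groups. Of the 6 none was a DEG at 28 min against 0 min by limma's test (3 passed an adjusted p-value under 0.05, and 2 of these were higher), and 2 rose as DEGs at 30 min. The globin genes Hba-a1 and Hbb-bs mark red cells. Hba-a1 was 56.5 to 246 FPKM in sham kidneys, 261 to 448 FPKM at 18 min, 152 to 371 FPKM at 28 min and 333 to 599 FPKM at 30 min, and Hbb-bs was 43.5 to 193 FPKM, 229 to 356 FPKM, 92.1 to 313 FPKM and 235 to 431 FPKM in these groups. For both the kidneys of 28 min overlapped with the shams and those of 18 and 30 min did not, and both were DEGs at 18, 22 and 30 min. Of the neutrophil markers Mmp8 was at 0 FPKM in 2 kidneys. The part of these cells in the change of Hmox1 was not tested.

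Nqo1 encodes NAD(P)H quinone dehydrogenase, which reduces quinones without forming semiquinone radicals. It was 46.03, 44.84 and 45.72 FPKM in the sham kidneys. In the 18 kidneys of 16 to 26 min it ranged from 57.1 to 111 FPKM with a median of 79.0 FPKM. The 28 min kidneys had 113.7, 101.4 and 113.2 FPKM, and the 30 min kidneys 87.2, 122 and 84.7 FPKM. All 24 clamped kidneys were above the sham kidneys, and the later times overlapped with the earlier ones. The log2 fold change against 0 min was 0.67 ± 0.18 at 16 min (adjusted p = 0.0126 by limma's test), 0.93 ± 0.18 at 24 min (adjusted p = 7.51e-04), 1.18 ± 0.18 at 28 min (adjusted p = 1.73e-05) and 1.07 ± 0.18 at 30 min (adjusted p = 3.88e-05). Nqo1 passed the adjusted p-value at all 8 times and was a DEG at 28 and 30 min. Without 30 min kidney 2, which had the 122 FPKM, the value at 30 min was 0.91, and without 16 min kidney 1 the adjusted p-value at 16 min was 0.0614.

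**Figure D2:**
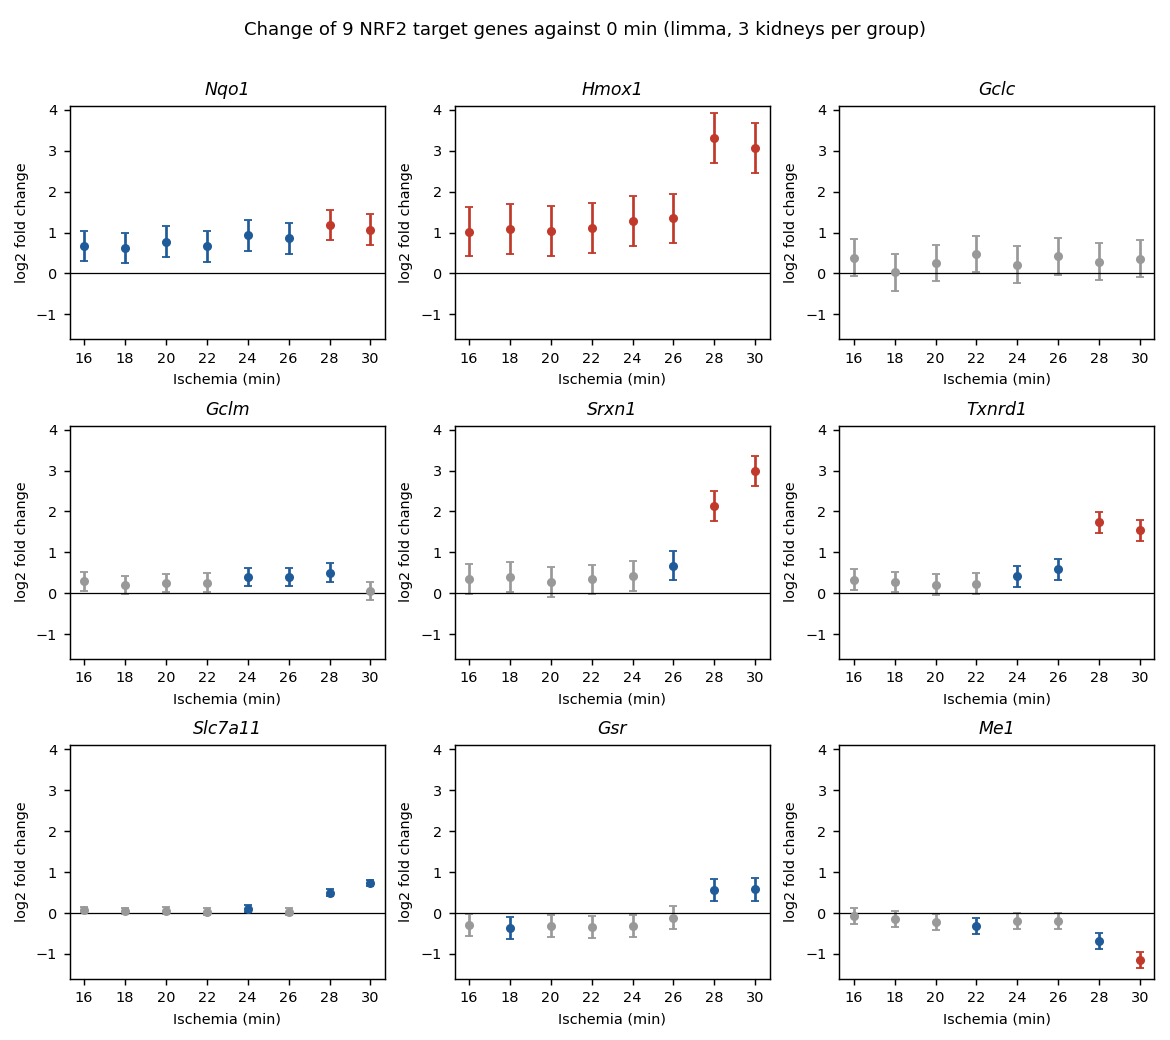
Log2 fold change against 0 min (y axis) at each ischemia time in min (x axis) for the 9 genes, as points with 95% confidence intervals from limma; red marks DEGs, blue an adjusted p-value under 0.05 alone and grey neither. Hmox1 is red at all 8 times, Srxn1, Txnrd1 and Nqo1 are red at 28 and 30 min, and Me1 is red below 0 at 30 min.

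Gclc and Gclm encode the catalytic and modifier subunits of glutamate-cysteine ligase, the rate-limiting enzyme of glutathione synthesis. Gclc was 129, 127 and 108 FPKM in the sham kidneys, 131, 148 and 152 FPKM at 28 min and 129, 115 and 200 FPKM at 30 min, and the 30 min kidneys overlapped with the shams. Its log2 fold change was 0.29 ± 0.21 at 28 min (95% confidence interval -0.16 to 0.74, adjusted p = 0.291 by limma's test) and 0.36 ± 0.21 at 30 min (-0.08 to 0.81, adjusted p = 0.168). With the spread pooled over all groups, both upper bounds lie below a log2 fold change of 1. The 30 min kidneys were more spread (SD 45.6 FPKM) than the sham kidneys (SD 11.7 FPKM), and an interval from these groups alone was not computed.

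Gclm was 147, 148 and 131 FPKM in the sham kidneys. It ranged from 156 to 232 FPKM with a median of 176 FPKM in the 18 kidneys of 16 to 26 min, all of them above the sham kidneys. The level at 28 min was 191, 185 and 206 FPKM, and at 30 min 138, 147 and 125 FPKM. The 28 min kidneys were above the shams and the 30 min kidneys lay among or below them. Gclm rose by a log2 fold change of 0.39 ± 0.11 at 24 min (adjusted p = 0.00935 by limma's test), 0.40 ± 0.11 at 26 min (adjusted p = 0.00778) and 0.51 ± 0.11 at 28 min (adjusted p = 5.77e-04). The 26 min value was 0.23 without kidney 3 of that group (adjusted p = 0.0579). At 30 min Gclm was 0.05 ± 0.11 from the shams (adjusted p = 0.722) and it fell from 28 to 30 min, by 0.45 ± 0.11 on the log2 scale (adjusted p = 0.00958, and 0.0556 without 30 min kidney 3).

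Slc7a11 encodes xCT, the light chain of the exchanger that imports cystine for glutathione synthesis and exports glutamate. It was the least abundant of the 9 genes at every time, at 0.05, 0.01 and 0.03 FPKM in the sham kidneys. In the 18 kidneys of 16 to 26 min it ranged from 0.03 to 0.14 FPKM. At 28 min it was 0.45, 0.40 and 0.48 FPKM, and at 30 min 0.70, 0.73 and 0.77 FPKM. The sham, 28 min and 30 min groups did not overlap. The mean FPKM was 14.8 times the sham mean at 28 min and 24.4 times at 30 min, ratios that rest on sham values of a few hundredths of an FPKM in a table rounded to 2 decimals. Since the pseudocount of 1 FPKM holds down the change of so low a gene, its log2 fold change was 0.50 ± 0.04 at 28 min (adjusted p = 7.01e-09 by limma's test) and 0.74 ± 0.04 at 30 min (adjusted p = 3.62e-11), and it was not a DEG. With a pseudocount of 0.1 FPKM it was a DEG, at 2.05 and 2.61. The small difference at 24 min (0.11 ± 0.04, adjusted p = 0.0457) did not keep an adjusted p-value under 0.05 without any of the 6 kidneys compared, taken in turn.

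Txnrd1 encodes the cytosolic thioredoxin reductase, which keeps thioredoxin reduced with electrons from NADPH. It was 54.0, 51.2 and 53.2 FPKM in the sham kidneys and 59.4 to 100.5 FPKM, with a median of 70.6 FPKM, in the 18 kidneys of 16 to 26 min. The kidneys of 28 min had 179, 158 and 193 FPKM, and at 30 min 156, 161 and 132 FPKM. No clamped kidney was as low as a sham kidney, and the 6 kidneys of 28 and 30 min were above the other clamped ones. Its log2 fold change was 0.42 ± 0.12 at 24 min (adjusted p = 0.0140 by limma's test, and 0.0983 without 24 min kidney 1), 0.59 ± 0.12 at 26 min (adjusted p = 0.00117), 1.73 ± 0.12 at 28 min (adjusted p = 3.74e-09) and 1.54 ± 0.12 at 30 min (adjusted p = 3.41e-09).

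Srxn1 encodes sulfiredoxin, which restores peroxiredoxins that hydrogen peroxide has over-oxidized. It was 26.34, 29 and 33.2 FPKM in the sham kidneys and 33.6 to 61.8 FPKM, with a median of 42.0 FPKM, in the 18 kidneys of 16 to 26 min. By 28 min the level was 164, 114 and 137 FPKM, and at 30 min 186, 316 and 227 FPKM. The 28 and 30 min groups overlapped neither with each other nor with the earlier times. Its log2 fold change was 0.68 ± 0.17 at 26 min (adjusted p = 0.00586 by limma's test), 2.14 ± 0.17 at 28 min (adjusted p = 1.3e-08) and 2.997 ± 0.17 at 30 min (adjusted p = 7.2e-11). Among the 9 genes it and Slc7a11 were the ones that still rose between 28 and 30 min.

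Gsr and Me1 belong to the NADPH side of the system. Gsr encodes glutathione reductase, which spends NADPH to return oxidized glutathione to its reduced form. It was 74.4, 84.5 and 82.3 FPKM in the sham kidneys. Of the 18 kidneys of 16 to 26 min, which ranged from 57.1 to 89.3 FPKM with a median of 67.9 FPKM, 14 were below the lowest sham kidney and 1 was above the highest. At 28 min it was 133, 106 and 129 FPKM, and at 30 min 119, 132 and 103 FPKM, and all 6 were above every earlier kidney. Its log2 fold change was 0.57 ± 0.13 at 28 min (adjusted p = 0.00117 by limma's test) and 0.58 ± 0.13 at 30 min (adjusted p = 8.29e-04). The lower level at 18 min, -0.37 ± 0.13 (adjusted p = 0.0413), did not pass without quantile normalization (-0.30, adjusted p = 0.106) and was lost without any 1 of the 3 sham kidneys or without 18 min kidney 2 or 3. At 26 min the value was -0.11 ± 0.13 (adjusted p = 0.590).

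Me1 encodes the cytosolic malic enzyme, a source of NADPH, and it was the only gene of the 9 that fell as a DEG. It was 188, 189 and 160 FPKM in the sham kidneys and 136 to 185 FPKM, with a median of 158 FPKM, in the 18 kidneys of 16 to 26 min. The values at 28 min were 103, 104 and 117 FPKM, and at 30 min 88.6, 76.9 and 64.8 FPKM. The groups of 28 and 30 min did not overlap with each other or with any earlier group. Me1 fell by 0.69 ± 0.09 on the log2 scale at 28 min (adjusted p = 4.19e-06 by limma's test) and by 1.14 ± 0.09 at 30 min (adjusted p = 4.08e-09). The smaller fall at 22 min, 0.32 ± 0.09 lower (adjusted p = 0.0121), had an adjusted p of 0.0656 without sham kidney 2.

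Tubular markers moved in the same kidneys as Me1. The sum of 8 proximal tubule markers, with Slc34a1 and Lrp2 at the head of the list, was 3297 to 3640 FPKM in sham kidneys, 2038 to 3400 FPKM at 26 min, 1227 to 1393 FPKM at 28 min and 770 to 865 FPKM at 30 min. Of these 8 markers 5 fell as DEGs at 28 min and 7 at 30 min. For this and the lists below, the rule called 8.48% and 10.7% of all genes at these times. By the adjusted p-value alone 52.3% of all genes passed at 30 min. The sum of 5 injured tubule markers, Havcr1 and Lcn2 first, was 15.8 to 90.1 FPKM in sham kidneys, 613 to 1218 FPKM at 26 min, 2144 to 2264 FPKM at 28 min and 2518 to 4918 FPKM at 30 min, and 5 and 4 of them rose as DEGs at 28 and 30 min. The 6 markers of other nephron segments, Umod and Slc12a1 first, summed to 2016 to 2171 FPKM in sham kidneys, 783 to 1096 FPKM at 28 min and 785 to 2846 FPKM at 30 min, with 2 lower DEGs at each of these times. The 4 endothelial markers, Pecam1 and Kdr first, summed to 56.8 to 68.8 FPKM in sham kidneys, 59.3 to 71.1 FPKM at 28 min and 79.2 to 123 FPKM at 30 min, where the groups did not overlap and 3 of the 4 were higher at an adjusted p-value under 0.05 without being DEGs. The part of these shifts in the level of Me1 or of the other 8 genes was not tested.

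The next question was where along the ischemia times the 9 genes changed. Between 16 and 26 min no gene of the 9 differed by limma's test, and 0% of all genes passed under either rule. At an unadjusted p-value under 0.05 there was 1 gene of the 9, Txnrd1 (0.26 ± 0.12), beside 9.44% of all genes. A slope per min over the 18 kidneys of 16 to 26 min also passed for none of the 9, nor was any at an unadjusted p-value under 0.05, and it passed for 0.0112% of all genes. The largest slopes were 0.03 log2 units per min, for Hmox1, Srxn1 and Txnrd1.

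From 26 to 28 min 3 of the 9 genes rose as DEGs, where the rule called 1.50% of all genes. They were Hmox1 (1.96 ± 0.29, adjusted p = 1.5e-04), Srxn1 (1.46 ± 0.17, adjusted p = 3.13e-05) and Txnrd1 (1.15 ± 0.12, adjusted p = 1.16e-05), each with no overlap between the 2 groups. How many of all genes had no overlap was not computed. At an adjusted p-value under 0.05 6 of the 9 passed, against 19.3% of all genes. The further ones were Slc7a11 (0.47 ± 0.04) and Gsr (0.67 ± 0.13), which rose, and Me1, which fell by 0.49 ± 0.09 on the log2 scale. Nqo1 (0.32 ± 0.18, adjusted p = 0.237), Gclm (0.11 ± 0.11, adjusted p = 0.573) and Gclc (-0.13 ± 0.21, adjusted p = 0.761) did not pass. The median log2 fold change of the 9 genes was 0.47 and that of all genes was 0.00. These 3 DEGs were called without any 1 of the 6 kidneys compared.

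From 28 to 30 min none of the 9 genes was a DEG by limma's test (4 had an unadjusted p-value under 0.05), where the rule called 1.05% of all genes. At an adjusted p-value under 0.05 4 of the 9 passed, against 13.2% of all genes. Srxn1 (0.86 ± 0.17, adjusted p = 0.00358) and Slc7a11 (0.24 ± 0.04, adjusted p = 8.17e-04) rose, and Gclm and Me1 (fell by 0.45 ± 0.09 on the log2 scale, adjusted p = 0.00375) fell. Hmox1 had a log2 fold change of -0.23 ± 0.29 (adjusted p = 0.697), although its 30 min kidneys were all below its 28 min kidneys. Nqo1, Txnrd1, Gsr and Gclc ranged from -0.19 to 0.07. In a fit of the 28 and 30 min kidneys alone none of the 9 passed the adjusted p-value, and 0 of all genes were DEGs in place of 191. Without 28 min kidney 1 or 30 min kidney 1 Srxn1 was a DEG, at 1.02 and 1.03.

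**Figure D3:**
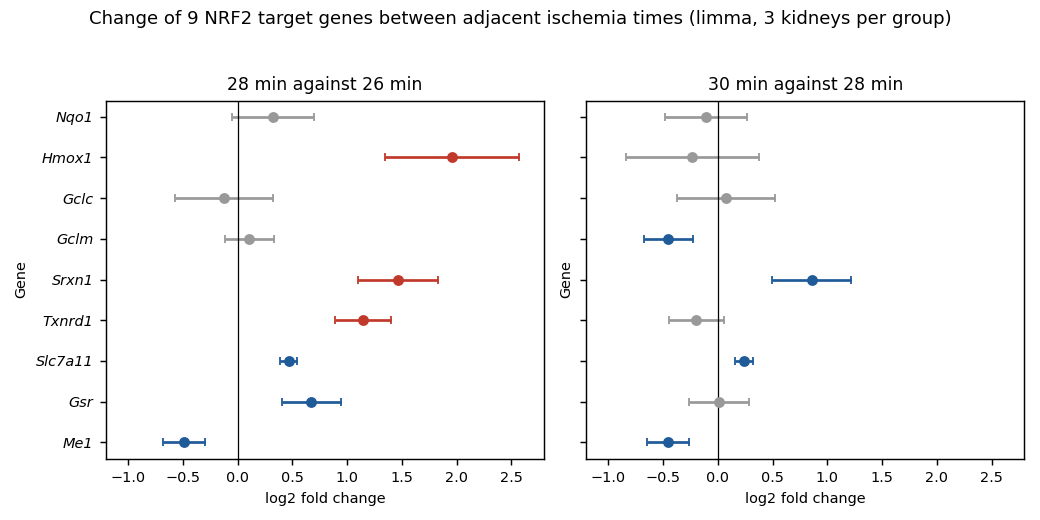
Log2 fold change (x axis) of each of the 9 genes (y axis) from 26 to 28 min on the left and from 28 to 30 min on the right, with 95% confidence intervals from limma; red marks DEGs, blue an adjusted p-value under 0.05 alone and grey neither. Hmox1, Srxn1 and Txnrd1 are red on the left at 1.96, 1.46 and 1.15, and no gene is red on the right.

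Ratios of FPKM within a kidney compare paired members without any scaling between kidneys. Srxn1 over Gclm was 0.21 ± 0.04 (SD, n = 3) in sham kidneys, 0.27 ± 0.02 at 26 min, 0.71 ± 0.13 at 28 min and 1.77 ± 0.40 at 30 min, with no overlap between neighbouring times from 26 min on. Txnrd1 over Gsr, the 2 NADPH-dependent reductases, was 0.66 ± 0.06 in sham kidneys, 1.08 ± 0.10 at 26 min, 1.44 ± 0.08 at 28 min and 1.27 ± 0.05 at 30 min. Nqo1 over Me1 was 0.26 ± 0.03 in sham kidneys, 0.61 ± 0.22 at 26 min, 1.01 ± 0.08 at 28 min and 1.29 ± 0.30 at 30 min, and the last 2 overlapped. The modifier and catalytic subunits of the ligase, Gclm over Gclc, stayed at 1.18 ± 0.04 in sham kidneys, 1.18 ± 0.08 at 26 min, 1.35 ± 0.10 at 28 min and 0.99 ± 0.34 at 30 min, with overlap at each step. With 3 kidneys against 3 the exact two-sided permutation test cannot go below p = 0.1. Over the 12 comparisons of 4 ratios (26 against 0, 28 against 26 and 30 against 28 min) the Srxn1 over Gclm and Txnrd1 over Gsr ratios reached that exact p = 0.1 at all 3 steps (0.15 after Benjamini-Hochberg adjustment), and Gclm over Gclc had exact p-values of 0.2 to 1.

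**Figure D4:**
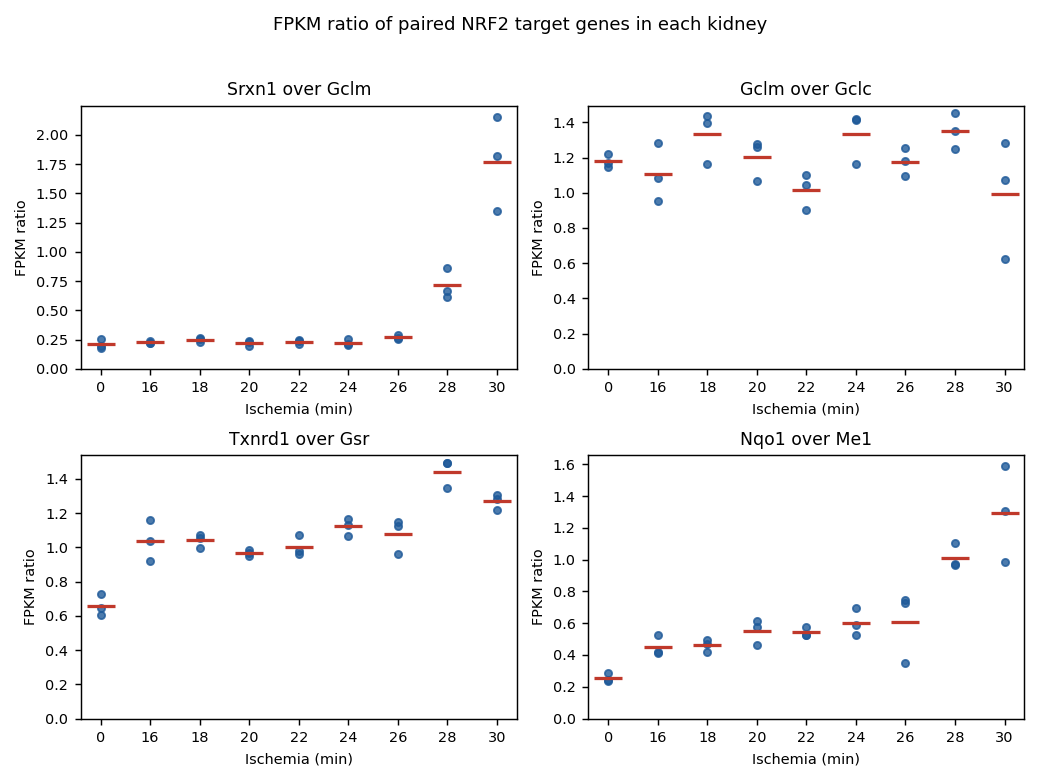
Ratio of FPKM values (y axis, linear from 0) for 4 pairs of the genes against ischemia time in min (x axis); each blue point is 1 kidney and each red bar the mean of 3 kidneys. Srxn1 over Gclm goes from a mean of 0.27 at 26 min to 0.71 at 28 min and 1.77 at 30 min, while Gclm over Gclc overlaps across these times.

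Of 10 regulators and partners of NRF2 1 was a DEG at 26, 28 and 30 min, beside 3.77%, 8.48% and 10.7% of all genes, and so near the background. At 28 min 9 passed the adjusted p-value, 5 higher and 4 lower, beside 48.2% of all genes. Nfe2l2 itself was 41.3, 38.1 and 39.2 FPKM in the sham kidneys, 47.3, 47.4 and 57.1 FPKM at 26 min, 70.0, 73.2 and 66.3 FPKM at 28 min and 72.3, 70.8 and 77.5 FPKM at 30 min. The sham, 26 min and 28 min groups did not overlap. Nfe2l2 rose by a log2 fold change of 0.26 ± 0.08 at 26 min (adjusted p = 0.0211 by limma's test, and 0.143 without 26 min kidney 3), 0.71 ± 0.08 at 28 min (adjusted p = 7.74e-07) and 0.85 ± 0.08 at 30 min (adjusted p = 4.74e-08). Keap1 was 16.0, 18.2 and 16.5 FPKM in sham kidneys and 15.5, 16.4 and 15.8 FPKM at 28 min, which overlapped, and its log2 fold change was -0.21 ± 0.06 at 28 min (adjusted p = 0.00474) and -0.09 ± 0.06 at 30 min (adjusted p = 0.196). Without quantile normalization the Keap1 value at 28 min was -0.08 (adjusted p = 0.285). Bach1 had a log2 fold change of -0.29 ± 0.08 at 26 min (adjusted p = 0.00679), -0.19 ± 0.08 at 28 min (adjusted p = 0.0499) and -0.22 ± 0.08 at 30 min (adjusted p = 0.0192), but without quantile normalization it passed at none of these times (-0.17, -0.07 and -0.11, adjusted p = 0.0963, 0.5 and 0.25). No direction is therefore given for Keap1 or Bach1 at these times. In FPKM, Bach1 was 4.64 to 6.15 in the kidneys of 18 to 26 min, all below the sham kidneys at 6.41 to 6.71. At 28 and 30 min its FPKM values overlapped with those of the shams. The DEG was Maff, a small MAF protein, which rose from 1.33, 1.47 and 2.08 FPKM in sham kidneys to 12.5, 10.4 and 13.5 FPKM at 28 min (2.16 ± 0.29) and 12.8, 18.5 and 14.3 FPKM at 30 min (2.48 ± 0.29). Sqstm1 (p62), which binds KEAP1, rose by 0.48 ± 0.12 at 28 min and 0.48 ± 0.12 at 30 min.

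Other genes known as NRF2 targets were set beside the 9 as a list of 26. Of these 26, 5 were DEGs at 26 min against 0 min, 10 at 28 min and 8 at 30 min, all of them higher, beside the background shares of 3.77%, 8.48% and 10.7% of all genes in either direction. Their median log2 fold change was 0.44 at 26 min, 0.84 at 28 min and 0.72 at 30 min, that of the 9 genes was 0.42, 0.57 and 0.74, and that of all genes was 0.00 at each. Of 5 genes listed for NADPH supply, 4 were DEGs at 28 and 30 min, the pentose phosphate pathway genes G6pdx, Pgd, Taldo1 and Tkt, of which G6pdx and Pgd encode the steps that form NADPH. Pgd (6-phosphogluconate dehydrogenase) rose from 52.0, 55.2 and 60.9 FPKM in sham kidneys to 213, 195 and 216 FPKM at 28 min (1.87 ± 0.15), Taldo1 by 1.28 ± 0.10 and G6pdx by 1.25 ± 0.12, while the NADPH source Me1 fell. Among 11 genes of detoxification and export Cbr3 (carbonyl reductase 3), Gsta4 (a glutathione transferase) and Abcc3 (an export pump) were DEGs at 26, 28 and 30 min. Cbr3 was 1.01, 0.82 and 0.81 FPKM in sham kidneys, 20.6, 18.6 and 16.3 FPKM at 28 min and 11.5, 26.6 and 12.1 FPKM at 30 min, a log2 fold change of 3.20 ± 0.33 at 28 min. It was also the only one of the 26 that was a DEG from 26 to 28 min (1.36 ± 0.33, adjusted p = 0.00674 by limma's test).

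Biliverdin reductases act on the product of heme oxygenase. Blvrb rose by 1.27 ± 0.14 at 28 min and 1.56 ± 0.14 at 30 min, Blvra by 1.05 ± 0.13 and 0.76 ± 0.13, and the heme transporter Slc48a1 by 0.84 ± 0.08 and 0.64 ± 0.08. The ferritin chains Fth1 and Ftl1, which store the released iron and were looked at because of their values, were among the most abundant genes of the table. Fth1 was 5205, 5375 and 5707 FPKM in sham kidneys and 10552, 9139 and 10203 FPKM at 28 min. The 2 groups did not overlap, yet quantile normalization gave a log2 fold change of 0.00 ± 0.12 at 28 min and -0.35 ± 0.12 at 26 min (adjusted p = 0.0311). Without it Fth1 rose by 0.87 ± 0.12 at 28 min (adjusted p = 7.54e-06) and 0.51 ± 0.12 at 26 min (adjusted p = 0.00334), so its direction at 26 min depends on the scaling. Ftl1 gave 0.14 ± 0.17 with quantile normalization and 1.06 ± 0.15 without it at 28 min (adjusted p = 5.29e-06). Each of the 9 genes kept its direction at 28 min against 0 min and 28 min against 26 min under both scalings.

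Among 5 genes of thioredoxin and peroxide handling Prdx6 (a peroxiredoxin) rose by 1.14 ± 0.11 at 28 min and 0.82 ± 0.11 at 30 min. Gpx2 was 0, 0 and 0.06 FPKM in sham kidneys and 1.15, 0.62 and 0.46 FPKM at 30 min. Osgin1 went the other way, with a fall of 0.72 ± 0.20 on the log2 scale at 30 min (adjusted p = 0.00487 by limma's test), and it was the only lower DEG of the 26 in any comparison, at 22 min (-1.07 ± 0.20), where its value was -0.99 without quantile normalization. The glutathione transferase Gstm1, named after its values were seen, fell by 0.83 ± 0.14 at 30 min (adjusted p = 6.74e-05) without being a DEG. Of 11 glutathione and cystine genes that were not listed as NRF2 targets, 1 rose and 1 fell as a DEG at 28 min, beside 8.48% of all genes called in either direction, and 1 rose and 3 fell at 30 min, beside 10.7%. The 3 that fell at 30 min were Ggt1 (gamma-glutamyltransferase, -1.35 ± 0.07), Gpx1 (glutathione peroxidase, -1.29 ± 0.09) and Ggct (-1.24 ± 0.16). Chac1, an enzyme that degrades glutathione, rose by 1.07 ± 0.32 at 30 min and 1.23 ± 0.32 at 28 min.

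**Figure D5:**
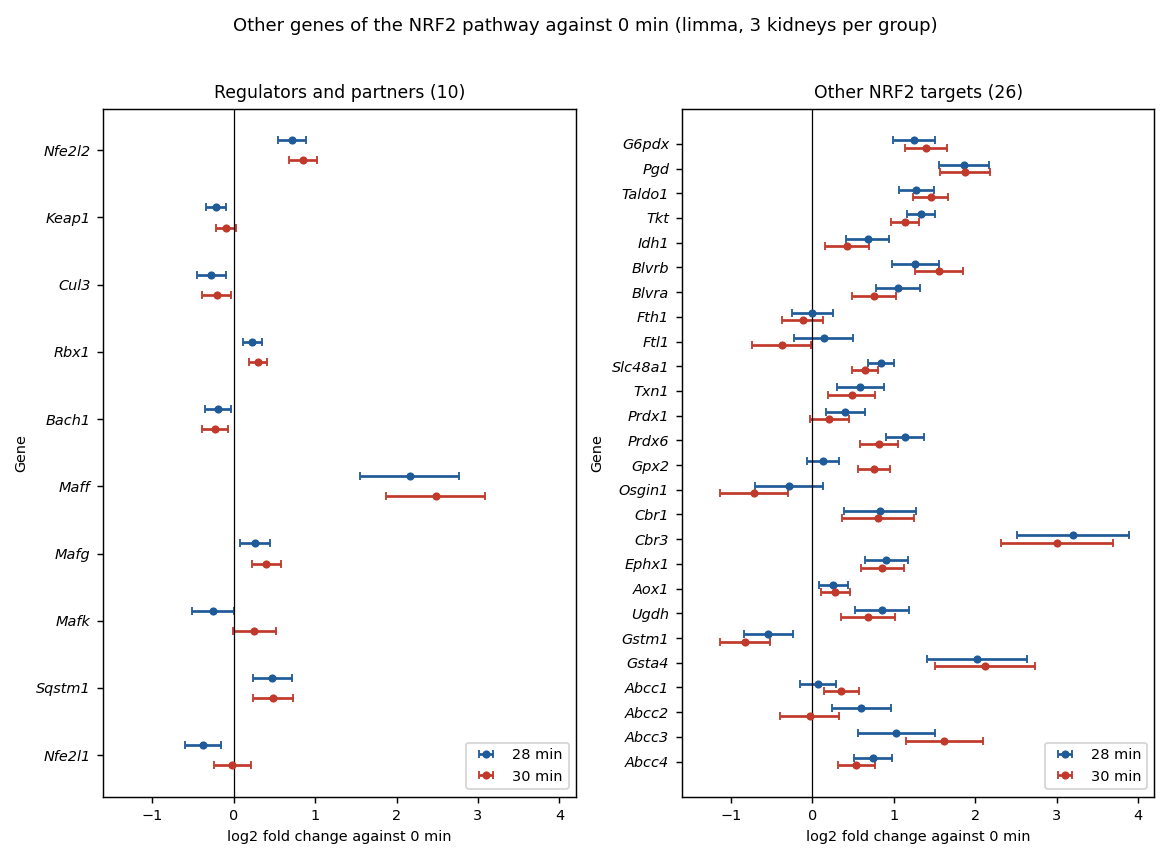
Log2 fold change against 0 min (x axis) of 10 regulators and partners of NRF2 (left) and 26 other NRF2 targets (right) at 28 min (blue) and 30 min (red), with 95% confidence intervals from limma on quantile normalized values. Maff, Cbr3, Gsta4 and Pgd lie farthest to the right, and at 30 min Gstm1 (-0.83) and Osgin1 (-0.72) lie farthest to the left.

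Genes with the pattern most like each of the 9 were found by Pearson's r of log2 values over the 27 kidneys, which share their ischemia groups and fall into clusters, so r is a description. Slc7a11 was most like Srxn1 (r = 0.98), Hmox1 was most like Eif4a1 (0.97), Eif3b (0.97) and Rap2b (0.96), and Txnrd1 was most like Ddx21 (0.98), Esd (0.97) and Abce1 (0.97). Srxn1 was followed by Lrrfip2, Zwint and Plin2 (0.98 to 0.99), Gsr by Cnbp, Nsun2 and Psma6 (0.95), and Me1 by Lactb2, Cyp2j5 and Gcnt1 (0.97 to 0.98). Lower values were found for Nqo1 (Aldh1a1, 0.87), Gclm (Tgm1, 0.81) and Gclc (Ncoa6, 0.70). Over the 18 kidneys of 16 to 26 min, 14 of the 36 pairs of the 9 genes had r above 0.5 and 3 had r below 0. Hmox1 and Gclm were at 0.88 and Srxn1 and Txnrd1 at 0.86. The share of such pairs among all genes was not computed. Kidney 3 of 26 min had the highest FPKM of the 18 for Nqo1, Hmox1, Gclc, Gclm, Srxn1, Txnrd1 and Gsr.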

How the data were processed

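Kidney RNA was sequenced by the authors on the DNBSEQ-G400 platform, 3 mice per ischemia time. For each symbol and kidney the authors deposited an FPKM value with 2 decimals. The submitters' processing notes name Bowtie2, RSEM, DESeq2 and the build GRCm38.p6, without versions. The annotation is not given in the sources used here. The paper calls the unit RPKM and describes quantile normalization and a log2 scale, neither of which the values hold. Samples were grouped by the time in their titles, and no batch is labelled.

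The values were taken as log2(FPKM + 1), quantile normalized over 27 kidneys and fitted in limma 3.58.1 (R 4.3.3) with 1 mean per ischemia time. The fit held the 18188 genes that exceeded 0 FPKM in 3 or more kidneys, and Benjamini-Hochberg adjustment ran over all of them. DEGs had adjusted p under 0.05 and an absolute log2 fold change above 1. The slope was fitted to 17889 genes. The scripts were tested on simulated data. Likeness used genes with a mean of at least 1 FPKM. Figures were drawn with matplotlib 3.10.9. Promoter windows came from RefSeq and exons from GENCODE, both on GRCm38.

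Named genes were the 9, Nfe2l2, Keap1 and Bach1, up to 3 per pathway list with the largest change at 30 min and any called against its list's majority, the first 2 markers per cell type, and the 3 most like genes. The 9 genes and all lists were chosen with earlier results of these data known. Alternatives were the pseudocount, scaling, filter, samples in the fit, variance trend, replicate block and leaving out kidneys. Read depth is unknown, so no interval for counting error is given. Each SE rests on 1 spread per gene, pooled over all groups of 3 kidneys and moderated by limma. It is therefore not the spread of the 2 compared groups alone. One marker list is not reported here as a whole.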

Additional observations from a re-analysis of the deposited data

Results flagged for a closer look

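Between 26 and 28 min of ischemia 6 of the 9 genes differed at an adjusted p-value under 0.05 by limma's test, beside 19.3% of all genes. Of these, 3 were DEGs, where the rule called 1.50% of all genes. Hmox1 differed by a log2 fold change of 1.96 (adjusted p = 1.5e-04), Srxn1 by 1.46 (adjusted p = 3.13e-05) and Txnrd1 by 1.15 (adjusted p = 1.16e-05). In each case the 3 kidneys of 28 min were above the 3 kidneys of 26 min. In the same kidneys the summed proximal tubule markers were 2038 to 3400 FPKM at 26 min and 1227 to 1393 FPKM at 28 min, and their part in these differences was not tested.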

How the results depend on the processing

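Over all alternatives 2256 values of the 9 genes, Nfe2l2, Keap1 and Bach1 were recomputed. As DEGs or not, 2237 kept their call, 10 lost it, 9 gained it and none was reversed, while 44 values with no call turned sign. The adjusted p-value alone was less stable: of values that passed it, 36 of 660 for the 9 genes and 46 of 224 for Nfe2l2, Keap1 and Bach1 did not pass under the alternative. In a fit of the compared groups alone, the number of the 9 genes called as DEGs was 0 at 16 min. The number at an adjusted p-value under 0.05 was 0 at 16 min, 5, 4 and 6 at the next 3 times and 0 from 28 to 30 min. Of all genes that fit called 40 as DEGs at 16 min in place of 410, and 0 from 28 to 30 min in place of 191. At the next 3 times after 16 min it called 496, 391 and 546. At 16 min 4 genes passed without quantile normalization and 5 as FPKM rescaled to a constant sum (TPM), and at 24 min 2 were DEGs under either. Of all genes these scalings called 434 and 574 as DEGs at 16 min in place of 410, and 626 and 801 at 24 min in place of 567. The share of all genes passing the adjusted p-value alone is not given for the alternatives, so these counts of the 9 genes have no background beside them. The median log2 fold change of the 9 genes at 28 min was 1.20 with a pseudocount of 0.1 FPKM, 0.78 as TPM and 0.87 with a filter of 1 FPKM, which drops Slc7a11. At 30 min it was 1.09 with that pseudocount and 1.08 as TPM, and from 26 to 28 min 0.68 with that pseudocount. Leaving out 1 kidney at a time, the number of DEGs among the 9 ranged from 0 to 1 at 16, 18, 20 and 22 min and from 28 to 30 min, and from 0 to 2 at 26 min. The number at an adjusted p-value under 0.05 ranged from 0 to 4 at 16 min and from 1 to 3 at 18 and 20 min. The median ranged from 0.23 to 0.57 at 26 min against 0 min and from -0.061 to 0.315 at 26 min against 16 min, the lower end in both without 26 min kidney 3. From 26 to 28 min the other 26 targets gave 0 to 2 DEGs (0 without 26 min kidney 2, 2 without 28 min kidney 3) and the regulators 0 to 1 (1 without 26 min kidney 3). Over all genes a pseudocount of 0.1 FPKM called 795 in place of 410 DEGs at 16 min, 2626 in place of 1542 at 28 min and 3276 in place of 1950 at 30 min. Without quantile normalization the share of DEGs that were higher was 74.3% in place of 63.1% at 24 min. For the 9 genes the split at 18 min went from 2 higher and 1 lower to 4 higher and 0 lower at an adjusted p-value under 0.05. Same-numbered kidneys had mean correlations of their deviations of -0.024, 0.033 and 0.017 for numbers 1, 2 and 3, beside -0.005 for kidneys of other numbers. Such means show no common pairing by number but cannot exclude a day or batch shared by some kidneys. With the replicate block 4 of the 9 genes were DEGs at 28 min and 5 at 30 min, as without it, and the adjusted p was 0.0509 for Gsr at 18 min and 0.0578 for Slc7a11 at 24 min. Depth could not be judged from FPKM.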
